A study of Mus musculus with 48 samples.

Results

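The red cell transcripts of this study were read from the rows of the gene-level expression matrix for 6 genes, Hba-a1, Hba-a2, Hbb-bs, Hbb-bt, Alas2 and Slc4a1, of 54752 genes in all. The 6 genes were listed as a readout of blood carried into cell fractions of the heart and diaphragm, so their levels across the cell populations are given as a description, with no test. The mice were male Prox1-eGFP knock-in mice on C57BL/6, in which eGFP reports Prox1 and marks lymphatic endothelium. Control mice (ctrl) were set against mice with an angiotensin II infusion (angII), which raises blood pressure and strains the heart, and against mice that had VEGFCc156s, a form of VEGFC that acts on lymphatic vessels, infused beside it (angII+VEGFC). The labels give ages of 8 to 16 months, and the study's methods give weeks for the same line. Cells were taken 5 to 6 weeks after implantation of the minipump. Each of the 4 cell populations had 12 libraries, 4 from ctrl mice, 5 from angII mice and 3 from angII+VEGFC mice, and the 48 libraries came from 13 mice. A mouse gave 1 library to each population, except mouse 4, with the diaphragm only, and mouse 12, with the heart only.

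Each library carries the number of a single mouse. Cardiomyocytes were pelleted from the digested heart, washed once in PBS and lysed for RNA, with no sort. The endothelial cells of the supernatant passed through red blood cell lysis buffer and were then sorted. The gate kept live cells with CD31 on the surface and without the leukocyte antigen CD45.2, and the presence of eGFP divided lymphatic endothelial cells (LECs), taken from heart and from diaphragm, from the blood endothelial cells (BECs), taken from heart. The defining markers of each label were present. The summed level of 6 lymphatic markers was 16281 to 29899.5 TPM in heart LECs and 20069 to 40272 TPM in diaphragm LECs, against at most 672 TPM in heart BECs. The summed level of 8 cardiomyocyte markers was 8622 to 22190 TPM in the cardiomyocyte libraries and at most 1148 TPM in the others. TPM, the unit of the matrix, is the abundance of a transcript per length as a share of its library, and because it keeps no read count the depth and the counting error of a value are unknown. The libraries held between 12924 and 25896 genes at 1 TPM or more.

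Red cells carry haemoglobin, a tetramer of alpha and beta globin chains that each bind a haem group. In adult mice the alpha chains come from the neighbouring genes Hba-a1 and Hba-a2, and in C57BL/6 mice the beta chains come from Hbb-bs and Hbb-bt. Alas2 encodes the erythroid form of 5-aminolevulinate synthase, which starts haem synthesis, and Slc4a1 encodes band 3, the anion exchanger of the red cell membrane. Young red cells (reticulocytes) have lost the nucleus but keep globin mRNA for a time, so globin mRNA is found in circulating blood. Red cells are the main site of globin expression, and alpha globin is also known from the endothelium of small arteries, so the levels alone do not give the cell of origin.

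The globin genes of each pair are near copies, which limits how reads can be assigned between them. Coordinates are of GRCm38. Hba-a1 lies at chr11:32283511-32284465 and Hba-a2 at chr11:32296489-32297298 on the forward strand, and Hbb-bs at chr7:103826534-103828096 and Hbb-bt at chr7:103812524-103813996 on the reverse strand. The coding sequences of Hba-a1 and Hba-a2, 429 bases long, differed at 1 base, C381T, and those of Hbb-bs and Hbb-bt, 444 bases long, at 1 base, C417T, where positions are counted from 1 at the A of the start codon and the base of the first gene of each pair is given first. Neither change alters the protein, of 142 residues in the alpha pair and 147 in the beta pair. The coding windows around these bases, all exonic, are shown because they are the coding sequence in which the copies can be told apart, with the differing base in capitals. The windows read 5′ to 3′ along the gene's strand and span chr11:32284313-32284373 (Hba-a1), chr11:32297130-32297190 (Hba-a2), chr7:103826665-103826722 (Hbb-bs) and chr7:103812656-103812713 (Hbb-bt).
Hba-a1: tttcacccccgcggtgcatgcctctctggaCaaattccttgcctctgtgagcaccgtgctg
Hba-a2: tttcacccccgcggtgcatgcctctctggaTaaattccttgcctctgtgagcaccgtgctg
Hbb-bs: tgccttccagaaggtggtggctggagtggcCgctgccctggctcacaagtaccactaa
Hbb-bt: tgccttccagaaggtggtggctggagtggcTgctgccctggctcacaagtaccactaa
Of the 75-base words of the first transcript of each gene, 62.2% of those of Hba-a1 and 81.0% of those of Hba-a2 were shared with the other copy. The shares were 64.3% for Hbb-bs and 56.6% for Hbb-bt. The split within a pair is therefore uncertain. The sums of alpha and of beta globin are not free of it, since TPM divides by transcript length. The transcripts were 699 bases long for Hba-a1 and 554 for Hba-a2, and 628 for Hbb-bs and 703 for Hbb-bt.

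The sequence before the start of 3 genes of the set is shown because the transcripts rose and fell together between libraries (below). The sequences are from RefSeq, GRCm38.p6, restricted to bases outside annotated exons, on the gene's strand, and lie at chr11:32296242-32296488 (Hba-a2), chr7:103827929-103828011 (Hbb-bs, within the Ensembl span of the gene) and chrX:150547167-150547374 (Alas2). Capitals mark matches on either strand to 4 motifs, which are the GATA motif (GATAA), the box named for its letters CCAAT, the CACCC box and the TATA box (TATAA).
Hba-a2: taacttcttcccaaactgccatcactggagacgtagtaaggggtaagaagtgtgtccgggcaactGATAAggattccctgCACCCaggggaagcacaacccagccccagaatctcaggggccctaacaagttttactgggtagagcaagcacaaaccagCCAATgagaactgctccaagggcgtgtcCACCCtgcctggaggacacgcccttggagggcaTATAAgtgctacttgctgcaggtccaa
Hbb-bs: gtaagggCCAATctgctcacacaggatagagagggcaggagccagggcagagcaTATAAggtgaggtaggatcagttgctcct
Alas2: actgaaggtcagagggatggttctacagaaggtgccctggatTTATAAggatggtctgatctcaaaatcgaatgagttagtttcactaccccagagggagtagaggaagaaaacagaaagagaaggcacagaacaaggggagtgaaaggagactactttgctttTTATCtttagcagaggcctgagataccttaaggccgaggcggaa
The full promoter windows of 300 bases of 5 members matched, and Slc4a1 had no entry. GATAA, the core of the motif bound by GATA factors, occurred in the windows of 5 of 5 members and in 25.4% of 32851 promoters of the same length. CCAAT occurred in the 4 globin windows and not in that of Alas2, and in 37.4% of all promoters. CACCC occurred in all 5 windows and in 57.5% of all promoters, and TATAA in all 5 and in 24.9%. The capital run TTATAA of Alas2 matches TATAA on both strands. The windows of Hba-a1 and Hba-a2 were identical over the 297 of 297 bases that could be aligned. A match describes the letters only.

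Globin transcripts were most abundant in cardiomyocyte libraries, followed by heart BECs, heart LECs and diaphragm LECs. The 4 adult globins together made up 1.62% ± 0.533 (SD, n = 12) of the cardiomyocyte libraries, 1.03% ± 0.706 of heart BEC libraries, 0.187% ± 0.194 of heart LEC libraries and 0.0958% ± 0.131 of diaphragm LEC libraries. The range was 0.893% to 2.48% in cardiomyocytes, 0.521% to 3.12% in heart BECs, 0.000700% to 0.653% in heart LECs and 0.00126% to 0.486% in diaphragm LECs. The SD was thus smaller than the mean in cardiomyocytes and heart BECs and larger than the mean in both LEC populations. Among all genes of a library Hba-a2 ranked between 12 and 24 in cardiomyocytes and between 1 and 53 in heart BECs, but between 32 and 14060 in heart LECs and between 45 and 9572 in diaphragm LECs. In bulk libraries, fewer red cells and less globin RNA in each red cell cannot be told apart.

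Within a mouse the order of the populations was nearly fixed. All 5 members other than Slc4a1 were higher in cardiomyocytes than in heart BECs in 11 of 12 mice, and the exception for each of the 5 was mouse 14 of the angII group. The share of all genes with this order in 11 of 12 mice was not computed. All 5 were higher in cardiomyocytes than in heart LECs in 12 of 12 mice, as were 3.61% of all genes, and than in diaphragm LECs in 11 of 11 mice, as were 6.09% of genes. They were higher in heart BECs than in heart LECs in 12 of 12 mice (5.11% of genes) and than in diaphragm LECs in 11 of 11 mice (8.01% of genes). No such order held between the LEC populations, since Hba-a2 was higher in heart than in diaphragm LECs in 7 of 11 mice, Hbb-bt in 5 and Alas2 in 3. Every cardiomyocyte library exceeded every heart LEC library for Hba-a1, Hba-a2, Hbb-bt and Alas2, as it did for 2.01% of all genes. The same held against diaphragm LECs for all 5 members and for 3.22% of genes. The ratio of the medians of cardiomyocytes to heart BECs lay between 1.79 for Hbb-bs and 2.37 for Alas2, and the ranges of these 2 populations overlapped for every member.

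**Figure D1:**
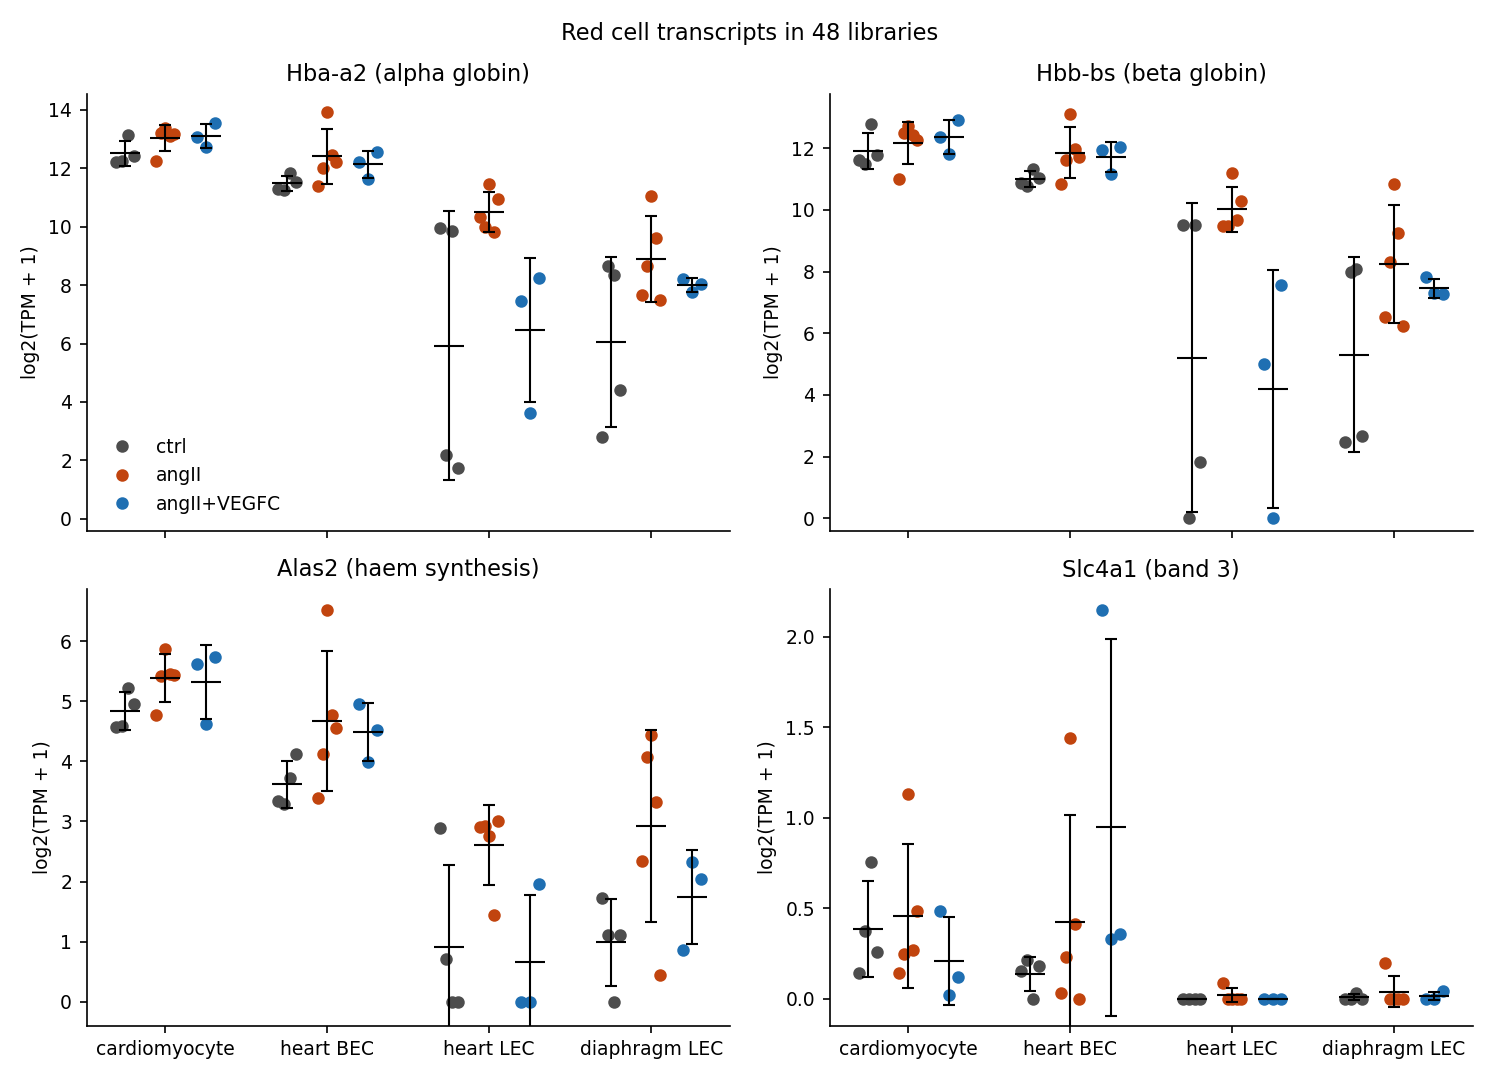
Levels of Hba-a2, Hbb-bs, Alas2 and Slc4a1 as log2(TPM + 1) in the 48 libraries, grouped by population (x axis) and treatment (colour), with each point a library, the long line the group mean and the bars 1 SD. The ctrl and angII+VEGFC groups of heart LECs hold libraries near 0 beside libraries with 175 to 981 TPM of Hba-a2.

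Alpha globin was the most abundant product of the set. Hba-a2, an alpha globin gene, was at 4747, 4904, 8990.3 and 5469 TPM in the cardiomyocytes of ctrl mice 1, 5, 9 and 11. It was at 4828, 9524, 10602, 8888 and 9278 TPM in those of angII mice 3, 12, 14, 15 and 18, and at 8588, 6719.7 and 11947 TPM in those of angII+VEGFC mice 2, 6 and 8. Mouse 9 stood above the other ctrl mice and mouse 3 below the other angII mice, and the 3 groups overlapped.

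In heart BECs Hba-a2 was at 2513, 2421, 3656 and 2959.6 TPM in ctrl mice 1, 5, 9 and 11. In angII mice 3, 12, 14, 15 and 18 it was at 2704, 4105, 15571, 5596 and 4779 TPM, and in angII+VEGFC mice 2, 6 and 8 at 4745, 3206 and 5972 TPM. The library of mouse 14 exceeded every other BEC library, and in it Hba-a2 was the most abundant gene.

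In heart LECs the libraries fell into separate levels. Hba-a2 was at 981, 3.51, 931 and 2.34 TPM in ctrl mice 1, 5, 9 and 11, at 1273, 1014, 2794, 892 and 1979 TPM in angII mice 3, 12, 14, 15 and 18, and at 175, 11.5 and 304 TPM in angII+VEGFC mice 2, 6 and 8. The ctrl libraries of mice 1 and 9 lay within the range of the angII libraries, while those of mice 5 and 11 were near 0. The 3 angII+VEGFC libraries lay below all 5 angII libraries.

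In diaphragm LECs Hba-a2 was at 6.05, 399 and 324 TPM in ctrl mice 1, 5 and 9 and at 20.2 TPM in ctrl mouse 11. In angII mice 3, 4, 14, 15 and 18 it was at 202, 399.7, 2128, 783 and 178 TPM, and in angII+VEGFC mice 2, 6 and 8 at 298, 216 and 261 TPM. The 2 low libraries were again ctrl libraries, of mice 1 and 11, and the angII+VEGFC values lay within the range of the angII values. Mouse 11 was low in LECs of both organs, while mouse 1 was low only in LECs of the diaphragm and mouse 5 only in LECs of the heart. The group means were 187 ± 203 TPM (SD, n = 4) in ctrl, 738 ± 814 TPM (n = 5) in angII and 259 ± 41.0 TPM (n = 3) in angII+VEGFC, against 479.6 ± 551, 1590.5 ± 794 and 164 ± 147 TPM in heart LECs.

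Hbb-bs, the more abundant beta globin, followed the same levels. In heart LECs it was at 723, 0, 726 and 2.53 TPM in ctrl mice 1, 5, 9 and 11. It was at 709.8, 705, 2331, 819.6 and 1245 TPM in angII mice 3, 12, 14, 15 and 18, and at 31.1, 0 and 188 TPM in angII+VEGFC mice 2, 6 and 8. Hbb-bs was listed at 0 in 2 heart LEC libraries that held alpha globin at low levels, and in the other 3 populations it was above 0 in every library. Its highest level was 7683 TPM in cardiomyocytes (mouse 8), 8887 TPM in heart BECs (mouse 14) and 1810.2 TPM in diaphragm LECs (mouse 14).

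The minor copies were lower. Hba-a1 ranged from 1662 to 4094 TPM in cardiomyocytes, from 821 to 5107 TPM in heart BECs, from 0.746 to 1056 TPM in heart LECs and from 0.768 to 595 TPM in diaphragm LECs. Hbb-bt ranged from 378 to 1240.4 TPM, from 226 to 1668 TPM, from 0 to 344 TPM and from 0.422 to 320.1 TPM in the same order. Hba-a1 was 26.3% ± 1.20 (SD, n = 12) of alpha globin in cardiomyocytes and 25.7% ± 1.90 in heart BECs, and Hbb-bs was 86.9% ± 1.45 and 87.8% ± 1.33 of beta globin. These shares rest on the split between near copies.

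Alas2, the erythroid enzyme of haem synthesis, was the member with the next highest level. It was at 22.8 to 57.7 TPM in cardiomyocytes (median 39.1) and at 8.80 to 91.3 TPM in heart BECs (median 16.5). In heart LECs it was between 0 and 7.00 TPM and in diaphragm LECs between 0 and 20.6 TPM. Relative to globin it was at 2.33 ± 0.361 TPM per 1000 TPM of adult globin in cardiomyocytes (SD, n = 12, range 1.74 to 2.95) and at 2.07 ± 0.467 in heart BECs (range 1.53 to 2.92). The ranges of this ratio overlapped between cardiomyocytes, for which no red blood cell lysis buffer is described, and BECs, which passed through it. In LECs the ratio was unstable, from 0 to 69.4 in the heart and from 0 to 184 in the diaphragm, with both terms near 0 in some libraries.

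Slc4a1, the band 3 gene, at chr11:102348824-102366203, was barely present in any population. It reached 1.19 TPM in cardiomyocytes (mouse 14), 3.44 TPM in heart BECs (mouse 2), 0.0627 TPM in heart LECs and 0.144 TPM in diaphragm LECs (mouse 3 in both). It did not reach 1 TPM in at least 3 libraries of any population, so 5 of the 6 members were tested in each. Slc4a1 stood apart from the other members within mice too, since it was higher in cardiomyocytes than in heart BECs in 6 of 12 mice.

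Beta and alpha globin kept a close ratio where globin was high. The ratio of beta to alpha TPM was 0.513 ± 0.0661 (SD, n = 12) in cardiomyocytes and 0.602 ± 0.0438 in heart BECs, and it was higher in BECs in 10 of 12 mice. In heart LECs it ranged from 0 to 0.735 and in diaphragm LECs from 0.187 to 0.848. The ratios farthest below those of BECs were those of heart LECs of ctrl mouse 5 (0.0260) and angII+VEGFC mice 6 (0) and 2 (0.169), and of diaphragm LECs of ctrl mouse 11 (0.187). Mouse 2 held 253 TPM of alpha globin there, and the other 3 held between 9.04 and 30.5 TPM.

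**Figure D2:**
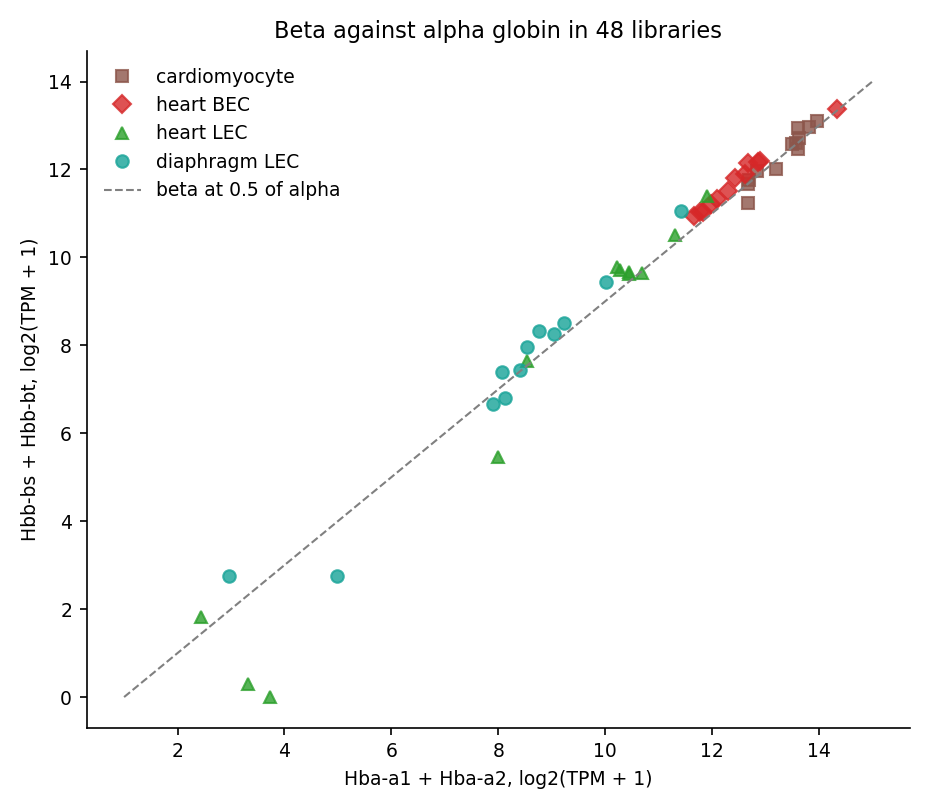
Summed beta globin against summed alpha globin, both as log2(TPM + 1), with a point for each of the 48 libraries, shapes for the populations and a dashed line where beta is 0.5 of alpha. Most libraries lie near the line, and the heart LEC libraries of mice 2, 5 and 6, at ratios of 0.169, 0.0260 and 0, lie well below it.

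The members other than Slc4a1 varied together between libraries. This is given as correlations of log2(TPM + 1) without a test, since the libraries share their groups. Pearson's r of Hba-a2 and Hbb-bs was 0.943 (Spearman's rho 0.902) over 12 cardiomyocyte libraries and 0.989 (rho 0.986) over 12 heart BEC libraries. In LECs the low libraries form a cluster of their own, and r was therefore taken over libraries with at least 100 TPM of Hba-a2. It was 0.962 (rho 0.683) over 9 heart LEC libraries and 0.978 (rho 0.976) over 10 diaphragm LEC libraries. For Hba-a2 and Alas2, r was 0.910 (rho 0.839) in cardiomyocytes and 0.959 (rho 0.888) in heart BECs, but 0.633 (rho 0.728) in heart LECs and 0.649 (rho 0.539) in diaphragm LECs. For Hba-a2 and Slc4a1, which was near 0, it was 0.424, 0.554, 0.162 and −0.337 in the same order. Between the cardiomyocytes and heart BECs of the same mouse, r of Hba-a2 was 0.786 (rho 0.881) over 12 mice, and 0.737 without the 2 mice farthest from the median. It was lower for the other pairs of populations. Cardiomyocytes gave 0.473 (rho 0.343) with heart LECs over 12 mice and 0.605 (rho 0.473) with diaphragm LECs over 11. Heart BECs gave 0.491 (rho 0.385) and 0.664 (rho 0.473) in the same order. Heart and diaphragm LECs gave 0.253 (rho 0.073) over 11 mice. Mouse 14 ranked first for all 4 globins in heart BECs, heart LECs and diaphragm LECs.

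**Figure D3:**
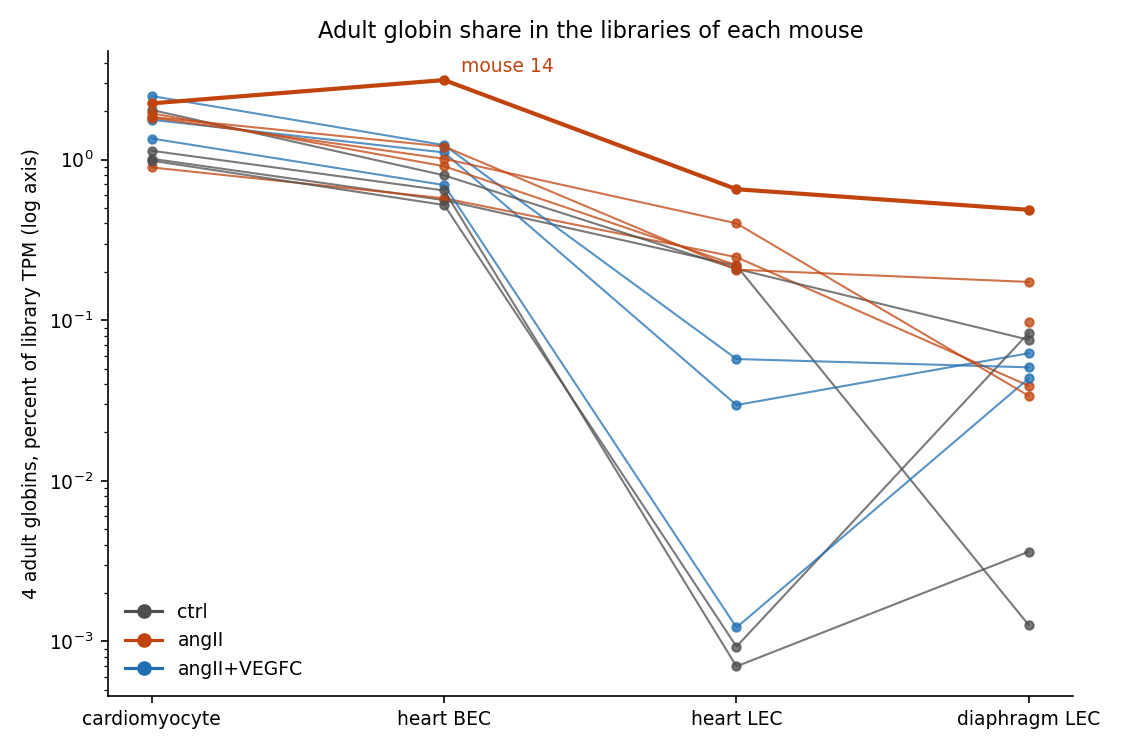
Summed adult globins as percent of the library TPM (log axis) in the 4 populations, with lines joining the libraries of a mouse and colours for the treatments. Mouse 14 is the highest in the 3 endothelial populations, at 3.12%, 0.653% and 0.486%, and is the only mouse whose heart BECs exceed its cardiomyocytes.

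In each population the genes with the highest correlation with the mean log2(TPM + 1) of the 4 adult globins were listed. In cardiomyocytes and heart BECs Alas2 ranked first, with r = 0.901 and 0.971 over 12 libraries. Also among the first 5 were Dlgap5, Dkk2 and Gm49749 in cardiomyocytes, with r from 0.794 to 0.831, and Cd79b, Scarb1 and Xpnpep3 in heart BECs, with r from 0.848 to 0.872. In heart LECs the first 5 were Prdm1, Vmn2r57, Atf7ip2, Zdbf2 and Gm37809, whose r over the 9 libraries with at least 100 TPM of Hba-a2 was between 0.243 and 0.887, and Alas2 ranked 377th. In diaphragm LECs they were Tmed10-ps, Oxnad1, Mrpl32, P2ry2 and Anxa1, with r between 0.128 and 0.770 over 10 libraries, and Alas2 ranked 934th. Over all 48 libraries, each centred on its population mean, the first 10 were Rgcc, Rsad2, Higd1b, Tbx3, Eepd1, AW112010, Mndal, Srgn, Prdm1 and Tcim, with r from 0.687 to 0.771 and Alas2 29th.

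Other genes of the red cell lineage and of haem handling were compared by lists. Of the embryonic and minor globins, Hbq1b and Hbb-bh2 had the highest means, and no gene of this list exceeded 12.9 TPM in any library (Hbq1b, diaphragm LECs). Of the erythroid regulators, Lmo2 and Tal1 were the highest, and Lmo2, which endothelial cells also express, was at 217.7 to 449.9 TPM in heart LECs. Gata1 and Klf1, named after their values were seen because they drive red cell genes, were at most 0.824 and 4.66 TPM. Of the late erythroblast and reticulocyte genes, Bnip3l and Mkrn1 were the highest. Alas1 and Urod led the haem synthesis list, Gypc and Dmtn the red cell membrane list and Fth1 and Ftl1 the haem breakdown and iron list, and all 6 were above 1 TPM in all 48 libraries. Leukocyte markers, summed, were at 429 to 1351 TPM in cardiomyocytes and at most 302 TPM in the sorted populations, and platelet markers, led by Pf4 and Ppbp, were at 119 to 213 TPM in cardiomyocytes and at most 199 TPM in the sorted populations. Single genes carried most of these sums. The median of Lyz2 was 567 TPM in cardiomyocytes and 24.8 TPM in heart BECs, and that of Pf4 140 and 37.1 TPM. Ppbp went the other way, with medians of 4.96 and 12.9 TPM, so the order of the sums does not hold for every gene of either list. None of the 121 listed genes matched in the matrix passed an adjusted p of 0.05 between treatments except the lymphatic marker Prox1, which was lower in the cardiomyocytes of angII+VEGFC than of ctrl mice by −1.45 on the log2 scale (limma adjusted p = 0.0321). Prox1 was low there, at 0.867 to 6.18 TPM (median 3.07), against a median of 176 TPM in heart LECs. Its call was read from the main fit only.

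The treatments were compared within each population with limma on log2(TPM + 1), with age and sequencing batch as covariates (age alone for cardiomyocytes), with p-values adjusted over every gene tested (Benjamini-Hochberg). By the labels, ctrl mice 1, 5, 9 and 11 were 9, 8, 16 and 16 months old. The angII mice 3, 4, 12, 14, 15 and 18 were 8, 8, 16, 14, 14 and 16 months old. The angII+VEGFC mice 2, 6 and 8 were 15, 8 and 8 months old. Age was thus uneven between groups, and the fitted differences rest on its adjustment. None of the 5 members tested passed an adjusted p of 0.05 in any comparison. The groups hold different mice, and 0.0892% of the genes tested passed in cardiomyocytes in angII against ctrl, 0% in angII+VEGFC against angII and 0.663% in angII+VEGFC against ctrl. In heart LECs the shares were 0.0261%, 0% and 0% in the same order, and in heart BECs and diaphragm LECs they were 0% in all 3 comparisons. Where 0 genes passed, the number at an unadjusted limma p under 0.05 in either direction was 378 in cardiomyocytes, 2906 and 1325 in heart LECs, 1149, 551 and 1172 in heart BECs and 3651, 2094 and 314 in diaphragm LECs, in the order given. A member can miss this threshold with a large and uncertain difference. The sizes are therefore given with their standard errors (SE), together with the number of members at an unadjusted p under 0.05. The members tested varied together between libraries and the globins of a pair are near copies. These numbers are therefore not counts of independent genes.

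Angiotensin II was compared with control to ask whether the infusion moved the red cell signal. In heart LECs the fitted difference, angII minus ctrl, was 4.16 ± 1.38 (SE) for Hba-a2, 3.25 ± 1.29 for Hba-a1, 4.33 ± 1.66 for Hbb-bs, 3.34 ± 1.12 for Hbb-bt and 1.85 ± 0.66 for Alas2 on the log2 scale, with limma adjusted p-values from 0.311 to 0.382. All 5 had an unadjusted p under 0.05, as did 8.94% of the genes tested in the upward direction, and the median of all genes was 0.23. The ranges of angII and ctrl overlapped for every member. The difference was not alike in the sequencing batches: for Hba-a2 it was 0.68 in batch 1 (3 against 2 libraries) and 8.42 in batch 2 (2 against 2 libraries), where both ctrl libraries were near 0.

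In diaphragm LECs the same comparison gave 2.91 ± 1.03 (SE) for Hba-a1, 2.86 ± 1.03 for Hba-a2, 2.91 ± 1.18 for Hbb-bs, 2.58 ± 1.06 for Hbb-bt and 1.85 ± 0.67 for Alas2, with limma adjusted p-values from 0.297 to 0.305. All 5 members had an unadjusted p under 0.05, as did 13.9% of the genes tested in the upward direction, and the median of all genes was 0.28. The difference in Hba-a2 was 3.54 in batch 1 and 2.02 in batch 2. Without ctrl mouse 1 or ctrl mouse 11 the number of members at an unadjusted p under 0.05 was 1 in each case, and it was 2 without angII mouse 15 and 3 without angII mouse 14. In heart LECs it was 1 without ctrl mouse 11 and 3 without ctrl mouse 5.

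The other lists of red cell and haem genes had smaller median differences between angII and ctrl than the adult globins. At the adjusted limma threshold 0 of their genes passed. These lists are not specific to red cells. The medians of Fth1 and Lmo2, for example, were 10294 and 322 TPM in heart LECs against 3586 and 34.8 TPM in cardiomyocytes. The median difference in heart LECs was −0.07 for the 11 haem synthesis genes tested, Alas2 included, 0.25 for 10 of 15 red cell membrane genes, 0.08 for 5 of 8 erythroid regulators, 0.15 for 11 of 14 late erythroblast and reticulocyte genes and −0.04 for 12 genes of haem breakdown and iron handling, beside 0.23 over all genes. At an unadjusted limma p under 0.05 there were 2, 1, 1, 0 and 0 genes of these lists, all higher, beside 8.94% of all genes in that direction.

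The fitted differences were smaller in the other populations. In heart BECs the difference, angII minus ctrl, was from 0.64 ± 0.35 (SE) for Hba-a1 to 0.94 ± 0.39 for Hbb-bt on the log2 scale (limma adjusted p 0.900 to 0.949), and 2 of 5 members, Hbb-bs and Hbb-bt, had an unadjusted p under 0.05, against 2.57% of genes in the upward direction. The number was 0 without ctrl mouse 1, 9 or 11 or angII mouse 15, 1 without ctrl mouse 5, 5 without angII mouse 3 or 12 and 4 without angII mouse 14. Platelet markers, another part of blood, had a median difference of −1.12 in the same heart BEC comparison, with 5 of 7 tested at an unadjusted limma p under 0.05, all lower, and blood endothelial markers one of 0.36, with 4 of 8, all higher. Platelet markers also had 5 of 7 lower in angII+VEGFC against ctrl, with a median of −0.92. Of 21281 genes tested in heart BECs, 1149 in the first and 1172 in the second comparison had an unadjusted limma p under 0.05 in either direction. The part of these markers in the globin differences was not tested. In cardiomyocytes the difference was between 0.14 ± 0.30 for Hbb-bs and 0.46 ± 0.28 for Hbb-bt (limma adjusted p 0.539 to 0.939), and 0 of 5 members had an unadjusted p under 0.05, against 9.85% of genes in either direction. Without angII mouse 3, which had the lowest level of its group for each member, 4 members did so, and without ctrl mouse 9, 1.

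Angiotensin II with VEGFCc156s was compared with angiotensin II alone to ask whether the therapy moved the signal. In heart LECs the 4 globins were lower in every angII+VEGFC library than in every angII library, as were 7.33% of the genes tested, while Alas2 overlapped. The difference was −2.99 ± 1.64 (SE) for Hba-a2, −3.68 ± 1.53 for Hba-a1, −4.61 ± 1.98 for Hbb-bs, −3.52 ± 1.34 for Hbb-bt and −2.30 ± 0.79 for Alas2 on the log2 scale, with limma adjusted p-values from 0.413 to 0.506 and a median of all genes of −0.37. Of the 5 members 4, all but Hba-a2, had an unadjusted p under 0.05, as did 9.75% of genes in the downward direction. Without angII+VEGFC mouse 6, whose library held 11.5 TPM of Hba-a2, the number was 0, and without angII mouse 3, 15 or 18 it was 2. For Hba-a2 the difference was −6.95 in batch 1, with a single angII+VEGFC library, and −2.52 in batch 2.

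In the other populations the addition of VEGFCc156s gave smaller values. The difference from angII was between −0.039 ± 0.46 (SE) for Hba-a2 and 0.15 ± 0.53 for Alas2 in heart BECs, between 0.17 ± 0.25 for Alas2 and 0.52 ± 0.35 for Hbb-bs in cardiomyocytes, and between −1.59 ± 1.22 for Hbb-bt and −0.53 ± 1.37 for Hbb-bs in diaphragm LECs. In each of these 0 of 5 members had an unadjusted p under 0.05, against 2.59%, 2.41% and 8.78% of genes in either direction. The number was 1 without angII mouse 14 in heart BECs, without angII+VEGFC mouse 2 in cardiomyocytes and without angII mouse 18 in diaphragm LECs.

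Against ctrl, the fitted difference of angII+VEGFC in cardiomyocytes was from 0.62 ± 0.25 (SE) for Alas2 to 0.75 ± 0.32 for Hbb-bt on the log2 scale (limma adjusted p 0.271 to 0.449), and 4 of 5 members, all but Hbb-bs, had an unadjusted p under 0.05, against 8.15% of genes in the upward direction. This count was 0 without ctrl mouse 11 or angII+VEGFC mouse 8, and 2 without ctrl mouse 1. In heart BECs 1 of 5 members, Hbb-bs with 0.86 ± 0.38, had an unadjusted p under 0.05, against 2.49% of genes in the upward direction. It was 0 without any single ctrl mouse or angII+VEGFC mouse 2 or 8, and 2 without angII+VEGFC mouse 6. In heart LECs the differences lay between −0.45 ± 0.77 for Alas2 and 1.16 ± 1.59 for Hba-a2, and in diaphragm LECs between 0.63 ± 0.80 for Alas2 and 2.37 ± 1.40 for Hbb-bs. In both 0 of 5 members had an unadjusted p under 0.05, against 4.94% and 1.32% of genes in either direction. In diaphragm LECs 4 members did so without ctrl mouse 5 and 2 without ctrl mouse 9.

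**Figure D4:**
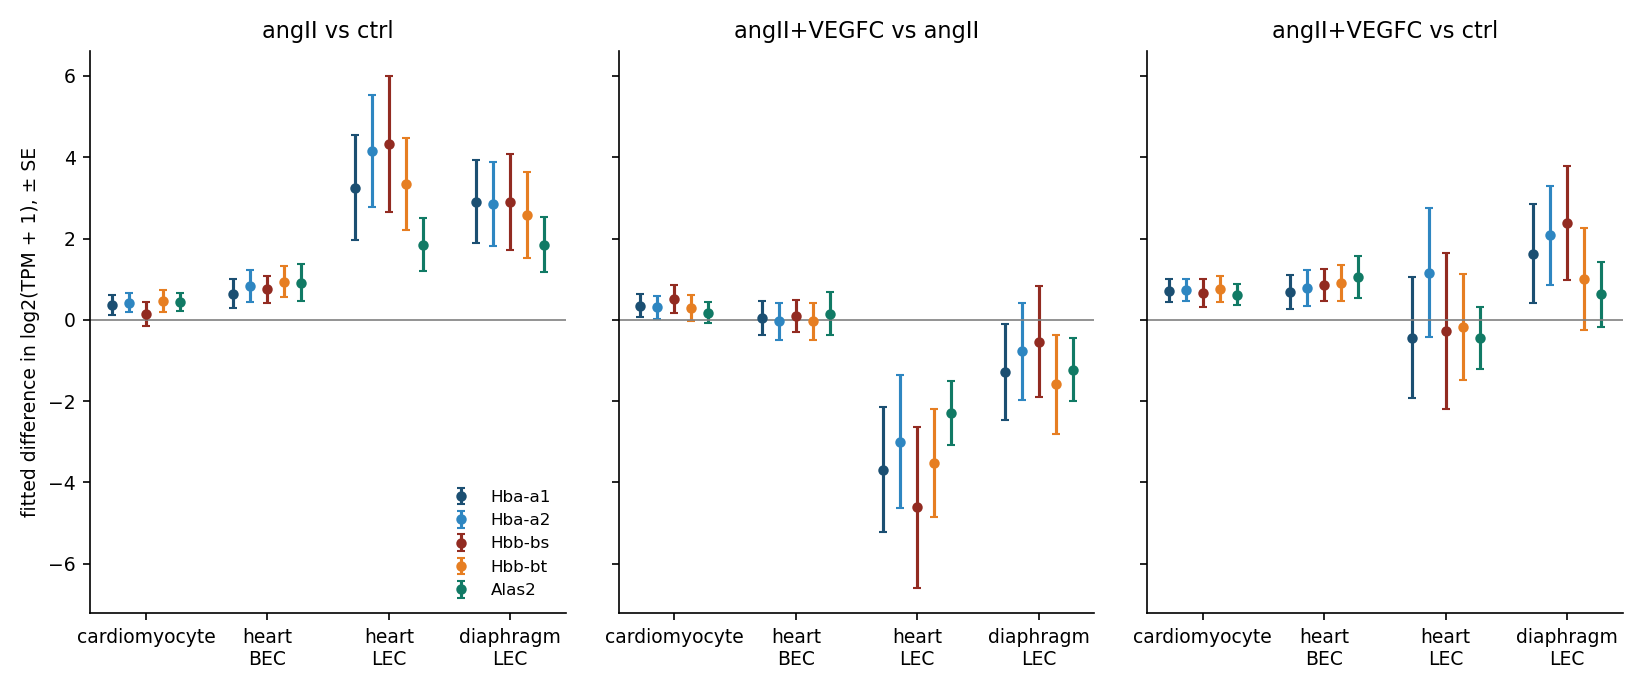
Fitted differences in log2(TPM + 1) with bars of 1 SE for 5 members (colours) in the 4 populations (x axis) and 3 comparisons of treatments (panels). The largest differences and the widest bars are those of the LECs, and limma adjusted p-values are above 0.05 throughout.

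The difference between the populations in these effects was tested over the 36 endothelial libraries. The main fit had no term for the mouse, so its SE and p-values treat libraries of the same mouse as independent. For angII against ctrl, the effect in heart LECs exceeded that in heart BECs by 3.65 ± 1.74 (SE) for Hba-a2 and 3.96 ± 2.02 for Hbb-bs on the log2 scale (limma adjusted p from 0.684 to 0.91 over the 5 members). Here 0% of all genes passed the adjusted threshold, and 1 of 5 members, Hba-a2, had an unadjusted p under 0.05, against 6.37% of genes in the upward direction. A replicate block by mouse gave 2 such members, and without a single mouse between 0 and 4, the 4 without mouse 1 or 9. The effect in diaphragm LECs exceeded that in heart BECs by 2.07 ± 1.75 for Hba-a2, and that in heart LECs exceeded that in diaphragm LECs by 1.57 ± 1.75, with 0 of 5 members at an unadjusted p under 0.05 in either, against 11.0% and 9.7% of genes in either direction. At the adjusted threshold 0% and 0.00611% of genes passed, 2 genes in the latter and 7 when a replicate block by mouse was added. The difference of 1.57 in Hba-a2 turned to −0.59 without mouse 5, and 1 member had an unadjusted p under 0.05 without mouse 1.

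For angII+VEGFC against angII the effect in heart LECs was below that in heart BECs by −3.78 ± 1.90 (SE) for Hba-a2 and −5.69 ± 2.20 for Hbb-bs on the log2 scale (limma adjusted p 0.768 for both). Of the 5 members 3, Hba-a1, Hbb-bs and Hbb-bt, had an unadjusted p under 0.05, against 5.87% of genes in the downward direction. Between heart and diaphragm LECs 1 of 5, Hbb-bs, did so, against 2.89% of genes in the downward direction, and between diaphragm LECs and heart BECs 0 of 5 did so, against 7.0% of genes in either direction. The 3 between heart LECs and BECs fell to 0 without mouse 6 and rose to 5 without mouse 8, and the 1 between LECs was lost without mouse 2, 3, 6 or 18. In all 3 comparisons 0% of genes passed the adjusted threshold. Over the 5 differences in which 0 genes passed, 2354, 3616, 2106, 1600 and 2294 genes had an unadjusted limma p under 0.05 in either direction, in the order described.

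The red cell signal of heart LECs was set beside markers of other cell types. The summed level of 8 blood endothelial markers, led by Fabp4 and Gpihbp1, was 1972 to 3632 TPM in the ctrl libraries, 3711 to 8973 TPM in the angII libraries and 2491 to 2880 TPM in the angII+VEGFC libraries, against 14837 to 23934 TPM in heart BECs. In angII against ctrl 6 of 8 of these markers had an unadjusted p under 0.05, all higher, and in angII+VEGFC against angII 5 of 8, all lower, with 0 of 8 at an adjusted p under 0.05 in either. Of all genes tested 8.94% were higher in the first and 9.75% lower in the second comparison at the unadjusted threshold. None of the 8 markers was at 0 in any heart LEC library. Over the 9 heart LEC libraries with at least 100 TPM of Hba-a2, r of Hba-a2 and this sum was 0.669 (rho 0.700). Over the 6 libraries of batch 1 it was 0.627 and over the 6 of batch 2 0.724, low libraries included. Over the 9 libraries r of Hba-a2 was 0.532 with the summed cardiomyocyte markers, −0.359 with platelet markers and −0.595 with leukocyte markers. Over all 12 libraries these were 0.516, 0.350 and 0.418. The summed cardiomyocyte markers were at 168 to 470 TPM in ctrl, 199 to 1148 TPM in angII and 197 to 371 TPM in angII+VEGFC, with 4 of 8 markers higher at an unadjusted p under 0.05 in angII against ctrl and 2 of 8 lower in angII+VEGFC against angII. Of 7 platelet markers tested, 2 were higher and 4 lower in these comparisons, with medians of 0.58 and −1.55. Genes that reached 1 TPM numbered 19957 to 25896 in angII, 16131 to 24086 in ctrl and 16756 to 18884 in angII+VEGFC. The part of any of these in the globin differences was not tested.

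**Figure D5:**
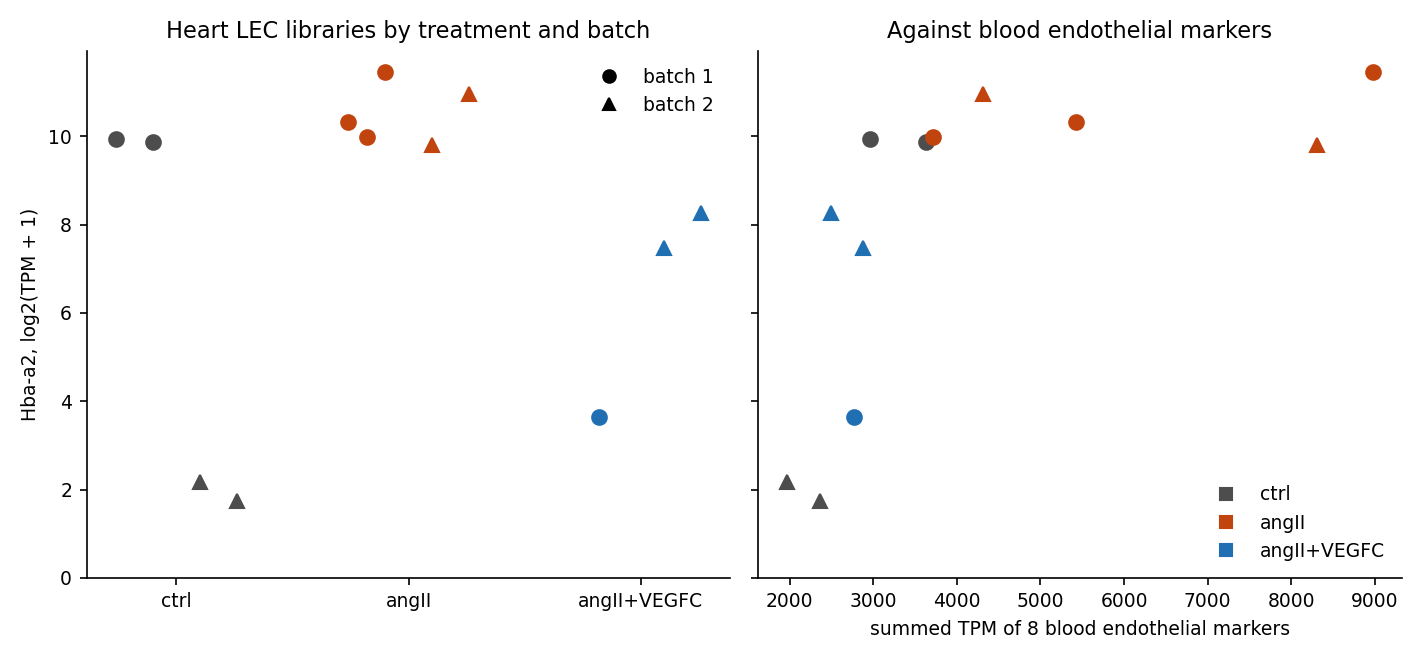
Hba-a2 as log2(TPM + 1) in the 12 heart LEC libraries, by treatment (left) and against the summed TPM of 8 blood endothelial markers (right), with circles for batch 1 and triangles for batch 2. The 3 libraries near 0 are ctrl mice 5 and 11 and angII+VEGFC mouse 6, which held 1972, 2365 and 2769 TPM of the markers.

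In diaphragm LECs the blood endothelial sum was 1807 to 2531 TPM in ctrl, 1890.0 to 2555 TPM in angII and 1717 to 2173 TPM in angII+VEGFC, and these ranges overlapped. Gpihbp1 had a median of 1320 TPM there and Fabp4 one of 250 TPM, so the sum mainly follows Gpihbp1. The median difference of the 8 markers was 0.22 in angII against ctrl, with 0 of 8 at an unadjusted limma p under 0.05. It was −0.63 in angII+VEGFC against angII, with 2 of 8, both lower. The angII libraries of the diaphragm held 20062 to 23691 genes at 1 TPM or more, above the 12924 to 18116 of the ctrl libraries. The angII+VEGFC libraries held 14963 to 18373. The cardiomyocyte marker sum there was 5.45 to 368 TPM in ctrl, 18.5 to 454 TPM in angII and 7.04 to 25.9 TPM in angII+VEGFC. The median difference of these markers was 1.44 in angII against ctrl, with 3 of 8 at an unadjusted limma p under 0.05, all higher, and −3.40 in angII+VEGFC against angII, with 7 of 8, all lower. Platelet markers gave 0.90, with 2 of 7 tested higher, and −1.70, with 3 of 7 lower. Of all genes tested 13.9% were higher at that threshold in the first comparison, and 8.78% passed it in either direction in the second. The part of these markers in the globin differences was not tested.

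The sequencing batch itself was tested in the same fits, since both low ctrl libraries of heart LECs were in batch 2. Hba-a2 was lower in batch 2 by −2.12 ± 1.22 (SE) on the log2 scale in heart LECs (limma adjusted p 0.914 to 0.955 over the 4 globins), where 0.116% of all genes passed the adjusted threshold. In heart LECs, heart BECs and diaphragm LECs 0 of 5 members had an unadjusted p under 0.05, against 5.66%, 6.64% and 3.4% of genes in either direction, and 0% of genes passed the adjusted threshold in the latter 2. In heart LECs 4 members did so without angII+VEGFC mouse 6, 3 without angII+VEGFC mouse 8 and 1 without angII mouse 12, and in diaphragm LECs 3 without ctrl mouse 5. The cardiomyocyte libraries were all in a batch of their own, so batch and population cannot be told apart there.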

How the data were processed

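RNA-seq libraries of 4 cell populations were analysed in TPM. The authors made cDNA from total RNA with a Smart-Seq ultra low input kit and Nextera XT libraries, and deposited 1 matrix of TPM per gene. The submitters' processing notes name STAR 2.5.3a, Salmon 0.12.0 and GRCm38. Library TPM totals were 997657 to 999929 and keep no depth, so no counting interval was given. Groups, mice, ages and batches came from the labels.

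Genes that reached 1 TPM in 3 or more libraries of a population were fitted on log2(TPM + 1) with limma 3.58.1 (R 4.3.3), with a trend of variance and all 3 groups in the model. A pseudocount understates differences of low genes. The interaction fits used 36 libraries, and the main one had no term for the mouse. P-values are two-sided. The script was tested on simulated data. The labels give libraries of different populations the same mouse number, so these are the same animal. Over 69 same-mouse pairs the median correlation of deviations was 0.0493, and 23 exceeded 0.1. Named genes were the members, the 5 most correlated per population (10 over all libraries), the 2 most abundant per list and any listed gene called. A gene that this rule names is not reported here. Members, lists and tests were chosen with earlier results of these data known. The limit of 100 TPM for the LEC clusters and the age term were added after the values were seen. Alternatives were a pseudocount of 0.1, no filter, no covariates, 1 surrogate variable, quantile normalization, rescaling without globins, only the 2 groups compared, a replicate block and each library left out.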

Additional observations from a re-analysis of the deposited data

Results flagged for a closer look

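Of 47 groups of 4 or 5 libraries, 15 held a library whose gap to its nearest neighbour was a large part of the range of the group. The rule flags about 5 percent of groups when values follow a normal distribution, which was not checked for TPM. A group with a single library above 0 is flagged by construction. The 15 can therefore not be set against that share. The number after each value is that gap as a part of the range. Members share libraries, so the 15 are not independent.

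In ctrl cardiomyocytes mouse 9 was the highest for Hba-a1 (0.8724), Hba-a2 (0.8299) and Hbb-bs (0.8477), with 8990.3 TPM of Hba-a2 against 4747 to 5469 TPM in the others. In angII heart BECs mouse 14 was the highest for Hba-a1 (0.7872), Hba-a2 (0.7753), Hbb-bt (0.7696), Alas2 (0.795) and Slc4a1 (0.8082), with 91.3 TPM of Alas2 against 9.47 to 26.2 TPM in the others. Mouse 14 was also the highest for Slc4a1 in angII cardiomyocytes (0.727), at 1.19 TPM, and for Hbb-bt in angII diaphragm LECs (0.7838), at 320.1 TPM against 18.0 to 83.3 TPM.

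In ctrl heart LECs Alas2 was at 6.41 TPM in mouse 1 and at most 0.644 TPM in the others (0.8996). In angII heart LECs it was lowest in mouse 15 (0.7703), at 1.71 TPM against 5.79 to 7.00 TPM. Slc4a1 was above 0 in a single library of its group in angII heart LECs (mouse 3, 0.0627 TPM), ctrl diaphragm LECs (mouse 9, 0.0216 TPM) and angII diaphragm LECs (mouse 3, 0.144 TPM), each with a gap of 1.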

How the results depend on the processing

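None of the 5 members tested was called in any of the 342 combinations of comparison and setting. Their lowest limma adjusted p was 0.0937 (Alas2, angII against ctrl, diaphragm LECs, 1 surrogate variable). Slc4a1, fitted only without the filter on low values, was not part of this count. Of 1604 alternative values for 105 member differences, 1514 kept direction and side of the threshold and 90, in 29 differences, changed sign. The cause of a change was not tested. The unknown depth limits values near 0.

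Members at an unadjusted p under 0.05 changed as follows. In cardiomyocytes, angII against ctrl went from 0 to 1 without covariates, with 1 surrogate variable, with quantile normalization and with only the 2 groups. Angiotensin II with VEGFC against ctrl went there from 4 to 0 without covariates or with only the 2 groups and to 2 with quantile normalization. In heart BECs angII against ctrl went from 2 to 5 without covariates and 4 with the surrogate variable. Angiotensin II with VEGFC against ctrl went there from 1 to 0 without filter or covariates, 2 with the surrogate variable or quantile normalization and 5 with only the 2 groups. In heart LECs angII+VEGFC against angII went from 4 to 2 with the pseudocount of 0.1 or no filter. The angII effect in heart LECs minus heart BECs went from 1 to 2 with the replicate block and 0 without filter.

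Genes called at an adjusted p under 0.05 changed in cardiomyocytes from 14 (angII against ctrl) to 0 without filter, 273 with the surrogate variable, 37 with quantile normalization and 245 with only the 2 groups, and from 104 (angII+VEGFC against ctrl) to 0, 524, 326 and 30. In heart BECs they went from 0 to 1 without covariates and 2 with only the 2 groups (angII against ctrl), and from 0 to 2 with only the 2 groups (angII+VEGFC against ctrl). In heart LECs they went from 7 (angII against ctrl) to 0 with the pseudocount of 0.1, no filter, quantile normalization or only the 2 groups, from 0 (angII+VEGFC against angII) to 2 with the surrogate variable and 5 with only the 2 groups, and from 31 (batch) to 1 without filter. In diaphragm LECs the surrogate variable gave 520 (angII against ctrl) and 3 (angII+VEGFC against angII) in place of 0. For the differences of the angII+VEGFC effect, no filter gave 3 (heart LECs minus BECs) and 4 (diaphragm LECs minus BECs) in place of 0. For the angII effect in heart minus diaphragm LECs, the 2 called became 7 with the replicate block, 4 with the pseudocount of 0.1 and 0 without filter. The replicate block changed no other call.

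Signs turned, for angII+VEGFC against angII without covariates, in cardiomyocytes (Hbb-bt −0.016, Alas2 −0.067) and heart BECs (Hba-a1 −0.27, Hbb-bs −0.14, Alas2 −0.18), and in heart BECs to 0.053 for Hba-a2 with quantile normalization and 0.060 for Hbb-bt with only the 2 groups. The batch difference in heart BECs turned to 0.0055 for Hbb-bt with quantile normalization. With the pseudocount of 0.1, Hbb-bt in heart LECs (angII+VEGFC against ctrl) turned to 0.046, the batch difference to 0.22 for Alas2 in heart LECs and 0.015 for Hba-a2 in diaphragm LECs, and the angII effect on Alas2 in heart minus diaphragm LECs to 0.86, and to 0.089 with the replicate block. The correlation of Hba-a2 and Alas2 in diaphragm LECs, 0.649, was 0.433 over all 12 libraries, 0.463 in batch 1 and 0.481 in batch 2.

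With each library or mouse left out in turn, the number of members at an unadjusted p under 0.05 ranged from 0 to 4 for angII against ctrl in cardiomyocytes, 0 to 1 for angII+VEGFC against angII in cardiomyocytes, 0 to 5 for angII+VEGFC against ctrl in cardiomyocytes and 0 to 5 for angII against ctrl in heart BECs. It ranged from 0 to 1 for angII+VEGFC against angII in heart BECs, 0 to 2 for angII+VEGFC against ctrl in heart BECs, 1 to 5 for angII against ctrl in heart LECs and 0 to 5 for angII+VEGFC against angII in heart LECs. It ranged from 0 to 4 for batch in heart LECs, 1 to 5 for angII against ctrl in diaphragm LECs, 0 to 1 for angII+VEGFC against angII in diaphragm LECs and 0 to 4 for angII+VEGFC against ctrl in diaphragm LECs. It ranged from 0 to 3 for batch in diaphragm LECs, 0 to 4 for angII against ctrl, heart LECs minus heart BECs, 0 to 5 for angII+VEGFC against angII, heart LECs minus heart BECs and 0 to 1 for angII against ctrl, heart LECs minus diaphragm LECs. It ranged from 0 to 1 for angII+VEGFC against angII, heart LECs minus diaphragm LECs. The number of genes called ranged from 0 to 16 for angII against ctrl in cardiomyocytes, 0 to 852 for angII+VEGFC against ctrl in cardiomyocytes, 0 to 3 for angII against ctrl in heart BECs and 0 to 31 for angII against ctrl in heart LECs. It was from 0 to 12 for angII+VEGFC against ctrl in heart LECs, 1 to 45 for batch in heart LECs, 0 to 1 for angII against ctrl in diaphragm LECs and 0 to 1 for angII+VEGFC against angII in diaphragm LECs. It was from 0 to 3 for angII against ctrl, heart LECs minus heart BECs, 0 to 3 for angII+VEGFC against angII, heart LECs minus heart BECs, 0 to 1 for angII against ctrl, diaphragm LECs minus heart BECs and 0 to 1 for angII+VEGFC against angII, diaphragm LECs minus heart BECs. It was from 0 to 11 for angII against ctrl, heart LECs minus diaphragm LECs and 0 to 3 for angII+VEGFC against angII, heart LECs minus diaphragm LECs. Log2 differences that changed sign ranged, for angII against ctrl in cardiomyocytes, from −0.095 to 0.42 (Hbb-bs). For angII+VEGFC against angII in cardiomyocytes they ranged from −0.042 to 0.65 (Hbb-bt) and −0.084 to 0.41 (Alas2). For angII+VEGFC against angII in heart BECs they ranged from −0.27 to 0.29 (Hba-a1), −0.41 to 0.23 (Hba-a2), −0.24 to 0.37 (Hbb-bs), −0.38 to 0.29 (Hbb-bt) and −0.23 to 0.48 (Alas2). For batch in heart BECs they ranged from −0.35 to 0.10 (Hba-a1), −0.20 to 0.26 (Hba-a2), −0.17 to 0.25 (Hbb-bs), −0.20 to 0.32 (Hbb-bt) and −0.15 to 0.45 (Alas2). For angII+VEGFC against ctrl in heart LECs they ranged from −1.80 to 2.49 (Hba-a1), −0.49 to 3.88 (Hba-a2), −2.95 to 3.20 (Hbb-bs), −1.36 to 2.07 (Hbb-bt) and −0.96 to 0.32 (Alas2). For batch in heart LECs they ranged from −0.70 to 0.12 (Alas2). For angII+VEGFC against ctrl in diaphragm LECs they ranged from −0.11 to 3.74 (Hbb-bt). For batch in diaphragm LECs they ranged from −1.80 to 1.49 (Hba-a1), −2.10 to 1.30 (Hba-a2), −2.81 to 1.00 (Hbb-bs) and −2.29 to 1.08 (Hbb-bt). For angII against ctrl, heart LECs minus diaphragm LECs they ranged from −1.24 to 2.89 (Hba-a1), −0.59 to 3.98 (Hba-a2), −0.95 to 4.04 (Hbb-bs), −0.92 to 2.60 (Hbb-bt) and −0.89 to 0.27 (Alas2).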

Other observations

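The age of the mice, a covariate of the fits, was read after the values were seen. In cardiomyocytes the 5 members tested had age coefficients of 0.066 to 0.10 per month on the log2 scale, with unadjusted p-values from 0.0187 to 0.0486 and a limma adjusted p of 0.9999, and 0 of 15691 genes passed the adjusted threshold. Of all genes 0.427% had a positive age coefficient at an unadjusted p under 0.05. The 5 members varied together between libraries, so they cannot be set beside that share as 5 independent genes. As a plain correlation with no treatment term, Hba-a2 and age gave r = 0.449 (rho 0.316) over the 12 cardiomyocyte libraries. Dropping the 2 most outlying of these lowered r to 0.216. In the 3 endothelial populations no member had an unadjusted p under 0.05 for age. The unit of age differs between the labels and the methods of the study, so the size per month has the same uncertainty.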
